A study of Mus musculus with 18 samples.

Results

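The genes described here encode the invariant chains of the lymphocyte antigen receptors and chains of secreted antibody, together with the T cell surface protein Thy1. They are Jchain (formerly Igj), Ighm, Cd79a, Cd79b, Cd3g, Cd3d, Cd3e, Cd247 and Thy1, 9 genes in all. They were taken by exact match of the gene symbol in the annotation of the array platform, which gave 22 of the 45037 probe sets tested. Of the 22, 6 probe sets from 5 genes varied by at least 0.01 on the log2 scale over the 18 arrays, and the other 16 had practically the same value on every array and carry no information about the groups.

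T cells display an antigen-binding receptor that signals through the CD3 gamma, delta and epsilon chains and the zeta chain encoded by Cd247. B cells use membrane immunoglobulin with the CD79A and CD79B chains in the same way. Plasma cells, the end stage of the B lineage, secrete antibody, and the small joining chain links the subunits of polymeric IgM and IgA so that these can be carried across epithelia. Healthy mouse skin holds resident T cells in both layers, among them the gamma delta T cells of the epidermis.

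RNA came from dorsal skin of male hairless HR-1 mice, an albino strain, labelled as 6 weeks old, and was hybridised to Affymetrix whole-genome mouse arrays. WB mice (6 arrays) were tape-stripped and dosed orally with an extract of winged bean, a legume, 200 mg/kg daily, 5 times per week for 5 weeks, dissolved at 20 mg/ml in 0.3% carboxymethylcellulose. TS mice (6 arrays) were tape-stripped without extract. Both were stripped with cellophane tape on the left of the back, 3 times per week over 4 weeks, until water loss through the epidermis had reached 70 to 100 g/m2/h. NT mice (6 arrays) were not stripped. The labels do not say whether TS and NT mice were given the carboxymethylcellulose solution alone. The titles call the arrays of a group biological replicates. All levels below are the deposited values, read as log2, and ± is the SD over 6 arrays.

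One array and one group stood apart. On NT 5 albumin (Alb), the main plasma protein made by liver, was at 19.04, while the other 17 arrays lay between 5.99 and 6.96. Every other varying liver marker listed but Hp was also highest on NT 5, with Ttr at 14.18 to 18.71 and Apoa2 at 17.41. Hp, at 13.29, lay within the other NT arrays. Values without NT 5 are therefore given below. On the WB arrays the control probe sets for the 2 ends of the beta-actin transcript differed widely. Their 3' minus 5' difference, a measure of how far the labelled RNA reaches from the 3' end, was 5.69 ± 0.25 in WB (n = 6), 0.16 ± 0.07 in TS (n = 6) and -0.51 ± 0.10 in NT (n = 6). For Gapdh it was 3.70 ± 0.36 in WB, -0.44 ± 0.12 in TS and -0.59 ± 0.11 in NT. The beta-actin difference was higher by 5.53 in WB than in TS and by 0.66 in TS than in NT (both with an exact two-sided permutation p = 0.00216, the lowest value possible with 6 arrays a group, and adjusted p = 0.0026 over 6 tests). The Gapdh difference was higher by 4.14 in WB than in TS (exact permutation p = 0.00216, adjusted p = 0.0026) and by 0.15 in TS than in NT (exact permutation p = 0.0476, adjusted p = 0.0476).

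The comparison of TS with NT asks how repeated stripping altered the skin. All 6 varying probe sets of the group were lower in stripped skin, and the antibody joining chain fell furthest. Jchain fell by 4.91 (SE 0.56) and both varying probe sets of Ighm, the IgM heavy chain, fell by 1.78 (SE 0.24 and 0.25). Among T cell genes Cd3g fell by 1.23 (SE 0.18), Thy1 by 0.86 (SE 0.18) and Cd3d by 0.49 (SE 0.10). Over all 45037 probe sets 5.14% were called lower in this comparison, and over the 11946 that varied 19.4% were lower and 18.7% higher, against 6 of 22 and 6 of 6 in this group. In bulk skin, fewer lymphocytes and less RNA per lymphocyte cannot be told apart.

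**Figure D1:**
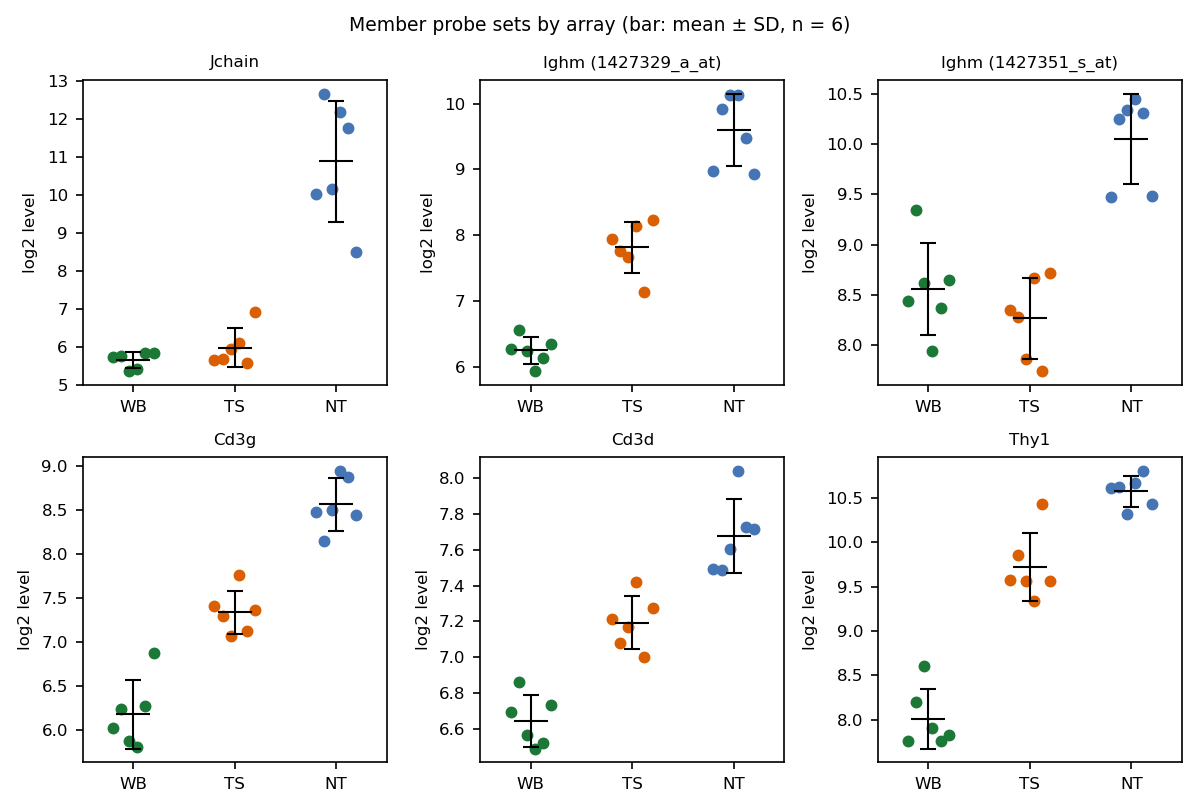
Level of each of the 6 varying probe sets on every array, on the deposited log2 scale (y axis), in WB, TS and NT (x axis); points are arrays and the bar is the mean with its SD over 6 arrays. Jchain lies between 8.49 and 12.67 in NT and below 7 on all stripped arrays, Thy1 is the probe set in which 1 TS array overlaps NT, and the 2 Ighm probe sets part from each other in WB.

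Jchain encodes the joining chain and is strongly transcribed in plasma cells. The TS arrays had a lowest value of 5.58, a median of 5.82 and a highest of 6.94, against 8.49, 10.98 and 12.67 on the NT arrays. No TS array reached the lowest NT array, and the NT arrays spread over a range of more than 4 log2 units. The means were 5.99 ± 0.51 in TS and 10.89 ± 1.59 in NT (n = 6 each), a difference of -4.91 (SE 0.56, adjusted p = 3.12e-05). Without NT 5 the difference was -4.73 (adjusted p = 0.000112). The other 5 probe sets also stayed past the test without that array, at -1.80 and -1.73 for Ighm, -1.16 for Cd3g, -0.81 for Thy1 and -0.48 for Cd3d. The TS mean lies under the median of the TS arrays (6.94), where the table has no measure of background, so the true size of this fall is uncertain and no fold is given.

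The Jchain promoter is shown here because this gene had the largest difference of the group. The sequence is the RefSeq window on GRCm38.p6 from 250 bases before to 50 after the gene's start, at chr5:88527848-88528147 on the minus strand. Capitals mark each match, on either strand, to the E-box CACCTG, a site type recognised by E proteins, which are transcription factors of lymphocyte development.
Jchain: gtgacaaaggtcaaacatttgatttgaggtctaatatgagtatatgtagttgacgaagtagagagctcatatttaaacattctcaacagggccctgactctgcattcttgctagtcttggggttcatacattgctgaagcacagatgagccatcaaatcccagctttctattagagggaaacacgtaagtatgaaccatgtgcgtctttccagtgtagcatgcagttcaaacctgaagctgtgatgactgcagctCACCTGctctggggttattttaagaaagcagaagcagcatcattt
One E-box lies 6 bases after the gene's start. Of 32851 promoter windows of this length, 20.2% hold this E-box. The octamer ATGCAAAT, searched on both strands and known from immunoglobulin gene promoters, is not in the window and occurs in 1.7% of all windows. The 2 motifs do not overlap each other, and they were chosen after the sequences had been seen.

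Ighm, the heavy chain of IgM on B cells and in secreted IgM, is represented by 11 probe sets, of which 9 did not vary. These are told apart here by the endings of their names, _a_at and _s_at. The _a_at probe set had 7.14, 7.85 and 8.23 (lowest, median and highest) on TS arrays, against 8.92, 9.70 and 10.13 on NT arrays. The _s_at probe set had 7.74, 8.32 and 8.72 on TS arrays, against 9.47, 10.28 and 10.45 on NT arrays. In both, every TS array lay below every NT array. The TS mean was 7.81 ± 0.39 and the NT mean 9.59 ± 0.55 for the first (adjusted p = 0.000105), and 8.27 ± 0.40 and 10.05 ± 0.45 for the second (adjusted p = 0.000174). If the scale is log2, this is a 3.44-fold lower level in TS by both. The 2 changes differed by -0.0009 (exact permutation p = 1), and Jchain changed by more than the _a_at probe set (difference of the changes -3.12, exact permutation p = 0.00216, adjusted p = 0.00346 over 8 such tests).

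Cd79a and Cd79b, the signalling partners of membrane immunoglobulin on B cells, stood at 6.32 and 6.43 on every array, below the array medians. Their ranges over the 18 arrays were 1e-09 and 4e-09, so they give no reading on B cells in either direction.

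Cd3g and Cd3d encode the gamma and delta chains of the CD3 complex, which every T cell receptor needs to reach the surface and signal. For Cd3g the TS arrays had 7.06, 7.33 and 7.76 (lowest, median and highest), against 8.14, 8.49 and 8.94 on the NT arrays. The means were 7.34 ± 0.25 in TS and 8.56 ± 0.30 in NT, a difference of -1.23 (SE 0.18, adjusted p = 0.000271), 2.34-fold on a log2 scale. Cd3d had 7.001, 7.19 and 7.42 on TS arrays against 7.49, 7.66 and 8.04 on NT arrays. Its difference was -0.49 (SE 0.10, adjusted p = 0.00245), 1.40-fold. For both genes no TS array overlapped an NT array. The change of Cd3g exceeded that of Cd3d (difference of the changes -0.74, exact permutation p = 0.00216, adjusted p = 0.00346), and Jchain changed by more than Cd3g (-3.68, exact permutation p = 0.00216, adjusted p = 0.00346). The changes of the Ighm _a_at probe set and Cd3g differed by -0.55 without passing (exact permutation p = 0.0714, adjusted p = 0.0816).

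In the RefSeq table (GRCm38.p6) Cd3g, Cd3d and Cd3e lie side by side on chromosome 9, with Cd3g and Cd3d transcribed away from each other. The windows around both start sites are shown because these neighbours fell together, again with the E-box in capitals on either strand. The Cd3g window is chr9:44980382-44980681 on the minus strand and the Cd3d window chr9:44981536-44981835 on the plus strand.
Cd3g: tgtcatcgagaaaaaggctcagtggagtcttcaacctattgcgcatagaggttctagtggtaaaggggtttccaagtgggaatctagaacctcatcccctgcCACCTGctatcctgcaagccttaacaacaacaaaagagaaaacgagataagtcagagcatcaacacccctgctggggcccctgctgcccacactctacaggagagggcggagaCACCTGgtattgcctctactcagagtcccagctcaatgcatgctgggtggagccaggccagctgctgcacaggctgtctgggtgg
Cd3d: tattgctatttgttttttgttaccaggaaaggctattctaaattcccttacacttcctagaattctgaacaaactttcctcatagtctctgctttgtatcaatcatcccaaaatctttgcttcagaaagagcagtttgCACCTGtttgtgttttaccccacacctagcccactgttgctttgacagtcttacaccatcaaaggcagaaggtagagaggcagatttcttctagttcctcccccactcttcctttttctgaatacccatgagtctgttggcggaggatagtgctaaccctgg
Cd3g has an E-box beginning 148 and another beginning 35 bases before its start, and Cd3d has 1 beginning 112 bases before its start. The windows of Cd3e, Cd247 and Cd79a, whose probe sets did not vary, hold 1 E-box each. The octamer is in none of the 6 windows found for the 9 genes.

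Cd3e, the epsilon chain that pairs with both gamma and delta, has 1 probe set, at 7.63 on every array. The 4 probe sets of Cd247, the zeta chain with most of the signalling motifs of the complex, were constant between 6.43 and 6.73. The fall of the CD3 complex is therefore measured on its gamma and delta chains alone.

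Thy1 is a surface glycoprotein of mouse T cells that neurons and some fibroblasts also carry. The TS arrays had 9.33, 9.57 and 10.43, against 10.32, 10.62 and 10.80 on the NT arrays. The highest TS array, TS 5, lay above the lowest NT array, and the other TS arrays lay below all NT arrays. The difference was -0.86 (SE 0.18, adjusted p = 0.00348), 1.81-fold lower in TS. Among varying probe sets 12.7% lay lower in TS with no overlap of arrays, and 5 of these 6 did. Of 15 varying probe sets of fibroblast markers 2 were called lower and 1 higher (1 lower and 1 higher without NT 5). Over all varying probe sets 19.4% were called lower and 18.7% higher. Of 7 nerve markers on the array the single varying one, Ncam1, differed by -0.02 (SE 0.08). The part of fibroblasts and nerves in the Thy1 result was not tested.

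Other antibody and T cell receptor chains gave a wider view. Beside the members, 49 probe sets carry a single symbol of such a chain, and 8 of them varied, of which 7 were called lower in TS. Another 14 carry several symbols, and 4 of them varied, of which 4 were called lower. Of all varying probe sets 19.4% were called lower. Igha, the heavy chain of IgA, the isotype that joining chain pairs into dimers, had 3 varying probe sets. On the first of these, that with the largest difference, the TS arrays had 6.71, 7.47 and 8.58 (lowest, median and highest), against 10.05, 12.24 and 13.46 on the NT arrays. It fell by 4.46 (SE 0.48, adjusted p = 2.1e-05), 22.1-fold, the next fell by 4.40 (SE 0.47), and the last fell by 3.60 (SE 0.43). The change of Jchain and that of the first Igha probe set differed by -0.44 without passing (exact permutation p = 0.0411, adjusted p = 0.0548). The kappa variable segment Igkv8-30 fell by 3.33 (SE 0.39, adjusted p = 3.9e-05). A further 3 probe sets annotated to several kappa chain segments, chosen after their values were seen, fell by 5.35 (SE 0.59), 6.35 (SE 0.70) and 6.30 (SE 0.69). The TS means of Igkv8-30 (6.32) and of the first and last of these (6.68 and 6.50) lie under the array median, so the size of their falls is uncertain, as for Jchain. The remaining kappa probe set has a TS mean of 7.08 but a TS median of 6.62, so the size of its fall is uncertain too. The lambda segment Iglv1 fell by 0.58 (SE 0.07, adjusted p = 8.33e-05), with a TS mean of 6.36 under the array median and an NT mean of 6.95 at it. Probe sets ending in _x_at or _s_at can bind several related transcripts, and immunoglobulin segments are near-identical copies, so the share of each chain in these signals is uncertain.

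Among T cell receptor segments Trav9d-3, an alpha chain variable segment, fell by 0.42 (SE 0.09, adjusted p = 0.00341). Trgv4, a gamma chain variable segment, fell by 0.12 (SE 0.04, adjusted p = 0.0461), with TS and NT arrays overlapping and both means under the array median. Without NT 5 Trgv4 differed by -0.10 (SE 0.04, adjusted p = 0.102) and did not pass. A probe set annotated to several gamma chain segments was called lower, at -0.78 with all arrays and -0.70 without NT 5 (SE 0.22, adjusted p = 0.0458). Its TS arrays lay between 6.73 and 7.55 and its NT arrays between 7.22 and 8.14. The TS mean of this probe set, 6.97, was close to the median of the TS arrays (6.94). The beta chain segment Trbv1 differed by 0.06 (SE 0.07, adjusted p = 0.816).

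**Figure D2:**
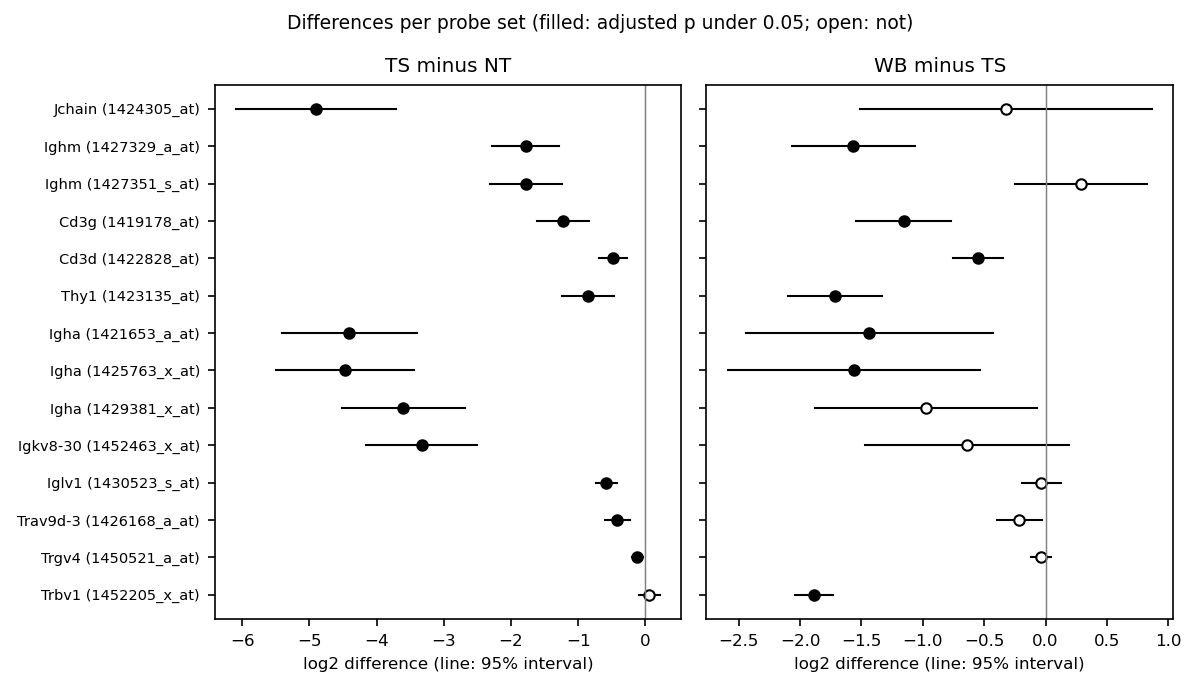
Difference in log2 level (x axis) of TS minus NT and of WB minus TS for the 6 varying member probe sets and 8 other chain probe sets with 1 symbol (rows); lines are 95% intervals and filled points have an adjusted p under 0.05. In TS minus NT all points but Trbv1 are filled and lie below 0, with Jchain at -4.91 and the Igha probe sets between -4.46 and -3.60; in WB minus TS Jchain is at -0.32 with an open point.

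Within NT skin Jchain, Igha and Igkv8-30 varied together from mouse to mouse. NT 2 had the highest and NT 6 the lowest level of Jchain, of all Igha probe sets and of Igkv8-30. In the TS group TS 6 was highest and TS 5 lowest for each of these. Over the 6 NT arrays the correlation of Jchain with the first Igha probe set was r = 0.995 (exact permutation p = 0.00139, adjusted p = 0.00602 over 39 relations) and rho = 1.00 (exact permutation p = 0.00278, adjusted p = 0.012). Without the 2 arrays farthest from the Jchain median r was 0.986. Within TS it was r = 0.933 (exact permutation p = 0.00278, adjusted p = 0.00833) and rho = 0.943 (exact permutation p = 0.0167, adjusted p = 0.0464), and without the farthest 2 arrays r was 0.882. Within WB, where all levels lie under the array medians, r was 0.945 (exact permutation p = 0.00833, adjusted p = 0.0217) and rho = 0.829 (exact permutation p = 0.0583, adjusted p = 0.134), and r fell to 0.574 without the farthest 2 arrays. The 3 probe sets of several kappa segments also varied with Jchain. Within NT r was 0.998, 0.985 and 0.982 (exact permutation p = 0.00139, adjusted p = 0.00602 for each). Within TS r was 0.971, 0.951 and 0.953 (largest exact permutation p = 0.00417, adjusted p = 0.0116). Within WB r was 0.852, 0.946 and 0.906, but rho did not pass. Without the farthest 2 arrays r in WB was 0.381, 0.310 and 0.246.

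Jchain did not track Cd3g, Cd3d, Thy1, Ighm or Iglv1 in a way that passed in any group. Within NT its correlation with Cd3g was r = 0.185 (exact permutation p = 0.678, adjusted p = 0.696) and rho = 0.143 (exact permutation p = 0.803, adjusted p = 0.824). With the Ighm _a_at probe set it was r = 0.666 (exact permutation p = 0.154, adjusted p = 0.215) and rho = 0.600 (exact permutation p = 0.242, adjusted p = 0.304). With the Ighm _s_at probe set r was 0.771 (exact permutation p = 0.0972, adjusted p = 0.152) and rho 0.543 (exact permutation p = 0.297, adjusted p = 0.351), and with Iglv1 r was 0.658 (exact permutation p = 0.165, adjusted p = 0.215) and rho 0.771 (exact permutation p = 0.103, adjusted p = 0.182). Without the farthest 2 arrays r was 0.999 for Cd3g, 0.369 and 0.662 for the Ighm probe sets and 0.276 for Iglv1, so with 4 arrays left the values for Cd3g, Ighm _a_at and Iglv1 are not stable.

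**Figure D3:**
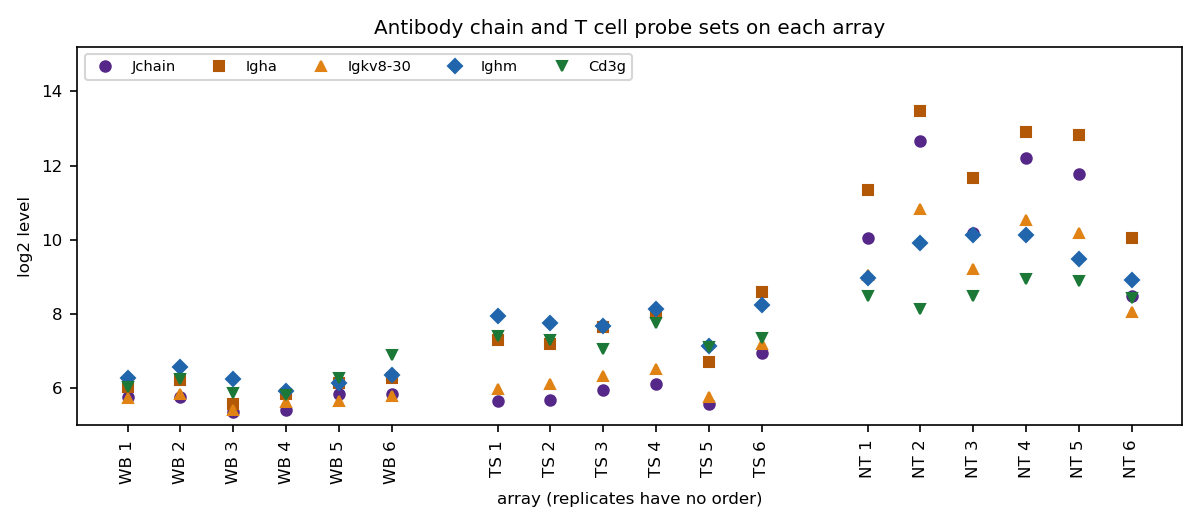
Log2 level (y axis) of Jchain, the first Igha probe set, Igkv8-30, Ighm (the _a_at probe set) and Cd3g on each array (x axis), with WB, TS and NT arrays side by side. Jchain, Igha and Igkv8-30 rise and dip on the same NT arrays, from NT 2 at the top to NT 6 at the bottom, while Cd3g stays between 8.14 and 8.94 in NT.

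By likeness over all 18 arrays after each group mean was subtracted, the genes nearest to Jchain were Igha (r = 0.987), Igkv8-30 (r = 0.984), the secreted phospholipase Pla2g2d (r = 0.838), the cytokine receptor chain Crlf2 (r = 0.814) and Tmem176a (r = 0.813). Nearest to Cd3g were Nlrc5, an activator of MHC class I genes (r = 0.847), Rnf103 (r = 0.821), the transcription factor Foxo3 (r = 0.817), Tmem243 (r = 0.814) and Cxcr6, a chemokine receptor of T cells (r = 0.812). For Cd3d they were Slc45a3 (r = 0.817), the interferon-inducible GTPase Igtp (r = 0.811), Chil1 (r = 0.756), Gng2 (r = 0.748) and the interferon-inducible GTPase Irgm2 (r = 0.743). For Thy1 they were Gcsh (r = 0.847), the neuronal tubulin Tubb3 (r = 0.847), the alarmin cytokine Il33 (r = 0.846), Cpxm1 (r = 0.842) and the interleukin 4 receptor chain Il4ra (r = 0.829). For the Ighm _a_at probe set they were the heparanase Hpse (r = 0.928), Tmem106a (r = 0.908), Pla2g2d (r = 0.903), Evi2a (r = 0.899) and the leukocyte GTPase Rac2 (r = 0.882). For the Ighm _s_at probe set they were the macrophage growth factor receptor Csf1r (r = 0.880), the immunoproteasome subunit Psmb8 (r = 0.871), the chemokine Ccl8 (r = 0.822), Pla2g2d (r = 0.822) and the peptidase Enpep (r = 0.803). These values share library and array and are given as a description. They are the highest among varying genes, with the probe sets of several kappa segments not counted.

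Further T cell genes were mostly without information. Of 30 listed, 26 were on the array and 3 of these varied, with 7 probe sets, of which 1 was lower and 3 were higher in TS, beside 19.4% lower and 18.7% higher of all varying probe sets. The median difference of these 7 was 0.24, beside 0.0032 over all varying probe sets. Cd7, a surface protein of T and NK cells, fell by 0.28 (SE 0.04, adjusted p = 0.000206). The 3 that rose were all of Bcl11b, a transcription factor of T cells and of keratinocytes, by 0.51 (SE 0.14), 0.45 (SE 0.09) and 0.35 (SE 0.08). In the list of gamma delta T cells and skin homing 11 of 21 genes were on the array and 4 varied (median -0.06). One of these fell in TS, Cxcr6, by 0.56 (SE 0.14, adjusted p = 0.0114). Itgae, the integrin chain that holds T cells in epithelium, differed by -0.12 (SE 0.21, adjusted p = 0.921), and the activation marker Cd69 by 0.14 (SE 0.12, adjusted p = 0.554). Of 3 varying NK and cytotoxic genes (median -0.27) 2 fell, the granule protein Nkg7 by 0.27 (SE 0.07, adjusted p = 0.0157) and Fcer1g, the Fc receptor gamma chain that also serves mast cells and macrophages, by 0.89 (SE 0.13, adjusted p = 0.000254).

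Of the B cell list 17 of 19 genes were on the array and 5 varied, with 6 probe sets. One fell in TS, the tetraspanin Cd37, by 0.74 (SE 0.13, adjusted p = 0.000931), a share near that of all varying probe sets, and the median of the list was -0.29. Without NT 5 both probe sets of the B cell transcription factor Ebf1 were also called lower, at differences of -0.57 (SE 0.17, adjusted p = 0.0358) and -0.42 (SE 0.13, adjusted p = 0.049), which makes 3 of 6. The plasma cell and antibody secretion list, with 15 genes on the array and 17 varying probe sets, held 4 that fell and 3 that rose. Both shares are near those of all varying probe sets, 19.4% lower and 18.7% higher. The median of this list was -0.06, and 0.02 without NT 5. Both probe sets of Txndc5, a disulfide isomerase of the endoplasmic reticulum, fell by 0.67 (SE 0.12 and 0.10), the folding factor Fkbp11 by 0.51 (SE 0.10, adjusted p = 0.00248) and Irf4, a transcription factor that plasma cells need, by 0.67 (SE 0.16, adjusted p = 0.00728). The elongation factor Ell2 rose by 1.05 (SE 0.13), and so did 2 of 4 probe sets of Sdc1, a proteoglycan of plasma cells that keratinocytes make in quantity, by 0.41 (SE 0.11) and 0.27 (SE 0.06). The 4 probe sets of Xbp1, the driver of the secretory programme, differed by -0.11 to 0.02 and did not pass. Pigr, the receptor that carries polymeric IgA through epithelia, stood at 9.63 and 11.34 on NT 5, above all other NT arrays, and without that array its probe sets differed by 0.12 (SE 0.05, adjusted p = 0.123) and 0.04 (SE 0.06, adjusted p = 0.845), against -0.39 (SE 0.42, adjusted p = 0.743) and -0.81 (SE 0.70, adjusted p = 0.58) with it.

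Of 18 genes for signalling proteins just downstream of the receptors on the array 7 varied, and 6 of their 8 probe sets fell in TS and none rose (median -0.43), beside 19.4% and 18.7% of all varying probe sets. Those that fell were the phosphatases Ptpn6, by 0.78 (SE 0.10), and Ptprc (CD45), by 0.73 (SE 0.10), the kinase Syk, by 0.50 (SE 0.09), both probe sets of the kinase Fyn, by 0.69 (SE 0.12) and 0.36 (SE 0.08), and the exchange factor Vav1, by 0.07 (SE 0.02). The adaptors Lcp2 and Blnk did not pass (adjusted p = 0.126 and 0.129). Most of these are made by all leukocytes. Among factors that recruit or sustain B and plasma cells, 2 of 6 varying probe sets fell (median -0.39). The chemokine Ccl27a fell by 0.36 (SE 0.10, adjusted p = 0.0184) and one probe set of Cxcl12 by 0.42 (SE 0.12, adjusted p = 0.0235), while the other differed by -0.08 (SE 0.12).

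Markers of other cells in the same skin moved as well. The counts below stand beside 19.4% lower and 18.7% higher of all varying probe sets. Of 15 varying macrophage probe sets 11 were lower and 1 higher in TS (11 and none without NT 5), and their mean level was 10.48 to 10.93 on TS arrays and 11.01 to 11.58 on NT arrays. Of 14 dendritic and Langerhans cell probe sets 7 were lower and none higher, with a mean level of 9.26 to 10.29 in TS and 9.93 to 11.21 in NT. Of 8 mast cell probe sets 4 were higher and none lower (9.63 to 10.19 in TS, 8.90 to 9.77 in NT). Of 13 keratinocyte probe sets 8 were higher and none lower (11.83 to 12.08 in TS, 11.12 to 11.51 in NT). Of 5 lymph node and endothelial probe sets 2 were lower (Lyve1 and Pdpn) and 1 higher (Pecam1), where without NT 5 Pdpn did not pass and the other Lyve1 probe set did, of 14 liver probe sets 1 was lower (Hp), and of 3 neutrophil probe sets none was called. The part of these shifts, and of the beta-actin 3' minus 5' difference that was 0.66 higher in TS, in the lymphocyte results was not tested.

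The comparison of WB with TS asks what the extract did in stripped skin. Thy1, Cd3g, Cd3d and 1 of the 2 Ighm probe sets were lower still in WB, and Jchain did not differ beyond the spread of the arrays. All of these stand beside beta-actin control differences of 5.69 in WB and 0.16 in TS, and the extract and this difference between the groups cannot be told apart. Over varying probe sets 41.7% were called lower and 47.1% higher, against 4 of 6 lower and none higher here. For Jchain the WB arrays had 5.36, 5.76 and 5.84 (lowest, median and highest) and the TS arrays 5.58, 5.82 and 6.94, a difference of -0.32 (SE 0.56, 95% interval -1.51 to 0.87, adjusted p = 0.762). Both means lie under the array medians (6.90 in WB and 6.94 in TS).

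The 2 Ighm probe sets parted in WB. The _a_at probe set had 5.93, 6.26 and 6.56 on WB arrays, against 7.14, 7.85 and 8.23 on TS arrays, with no overlap, and fell by 1.57 (SE 0.24, adjusted p = 3.52e-05). The _s_at probe set had 7.94, 8.53 and 9.34 on WB arrays, against 7.74, 8.32 and 8.72 on TS arrays, and differed by 0.29 (SE 0.25, 95% interval -0.25 to 0.82, adjusted p = 0.404). The difference between their changes was -1.855 (exact permutation p = 0.00216, adjusted p = 0.00346). In TS against NT both had fallen by 1.78.

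Cd3g had 5.81, 6.13 and 6.88 on WB arrays, against 7.06, 7.33 and 7.76 on TS arrays, and fell by 1.16 (SE 0.18, adjusted p = 5.96e-05). Cd3d had 6.49, 6.63 and 6.86 on WB arrays, against 7.001, 7.19 and 7.42 on TS arrays, and fell by 0.55 (SE 0.10, adjusted p = 0.000163). The WB means of both, 6.18 ± 0.39 and 6.64 ± 0.14, lie under the median of the WB arrays. Thy1 had 7.76, 7.86 and 8.60 on WB arrays, against 9.33, 9.57 and 10.43 on TS arrays, and fell by 1.71 (SE 0.18, adjusted p = 5.93e-07), 3.28-fold. None of these 3 genes had a WB array as high as a TS array, and neither did the Ighm _a_at probe set. Among all varying probe sets 37.3% lay lower in WB with no overlap. Markers of other cells moved too, beside 41.7% lower and 47.1% higher of all varying probe sets. Of 15 fibroblast probe sets 10 were lower and 3 higher, and of 15 macrophage probe sets also 10 and 3. Of 14 dendritic and Langerhans cell probe sets 10 were lower and 1 higher, and of 8 mast cell probe sets 7 and 0. Of 13 keratinocyte probe sets 5 were lower and 5 higher. The part of these shifts in the falls of Cd3g, Cd3d and Thy1 was not tested.

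In WB, where the Ighm _a_at mean of 6.25 also lay under the array median, Igha fell by 1.56 (SE 0.48, adjusted p = 0.0136) on the first probe set and by 1.44 (SE 0.47, adjusted p = 0.0199) on another, while the last differed by -0.97 (SE 0.43, adjusted p = 0.076). The WB means of all these probe sets lie under the array median. Igkv8-30 differed by -0.64 (SE 0.39, adjusted p = 0.212) and the 3 probe sets of several kappa segments by -0.36 (SE 0.59), 0.39 (SE 0.70) and 0.55 (SE 0.69), without passing. Trbv1, which had not differed between TS and NT beyond the spread of the arrays, fell by 1.89 (SE 0.07, adjusted p = 3.88e-12). The gene lists also went both ways in this comparison, beside 41.7% lower and 47.1% higher of all varying probe sets. Of 4 varying probe sets for gamma delta T cells and homing 1 was lower and 3 higher (median 0.62). Itgae and Cd69 were among those higher. Of 6 B cell probe sets 2 were lower and 3 higher, the higher ones being of Blnk and Ebf1. Of 7 T cell probe sets 3 were lower and 3 higher. Probe sets of single genes went both ways too. Those of Bcl11b changed by 1.15 (SE 0.09), 1.04 (SE 0.14), 0.21 (SE 0.08) and -0.72 (SE 0.10), and those of Sdc1 by 0.93 (SE 0.09) and -1.47 (SE 0.11) at the extremes. Ptprc rose by 0.51 (SE 0.10), while Ptpn6 fell by 1.51 (SE 0.10), Fcer1g fell by 3.69 (SE 0.13) and both probe sets of Txndc5 by 1.63 (SE 0.12) and 1.69 (SE 0.10).

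WB shares its NT reference with TS, so WB against NT is given as values alone. All 6 varying probe sets were lower in WB, beside 43.6% lower and 45.7% higher of all varying probe sets, and none of the 6 had a WB array as high as an NT array, beside 39.7% lower without overlap. Jchain fell by 5.23 (SE 0.56), the Ighm _a_at probe set by 3.35 (SE 0.24), Thy1 by 2.57 (SE 0.18), Cd3g fell by 2.38 (SE 0.18), the Ighm _s_at probe set by 1.49 (SE 0.25) and Cd3d by 1.04 (SE 0.10). The largest adjusted p of the 6 was 0.000104. For Thy1, Cd3g, Cd3d and the Ighm _a_at probe set the order of the group means was WB, TS, NT from low to high with each step past the test. For Jchain and the Ighm _s_at probe set only NT stood apart, and WB and TS did not differ beyond their spread.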

How the data were processed

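Per the labels' protocols, total RNA was taken up in Isogen, cleaned on an RNeasy column and labelled (100 ng per array). The authors deposited 1 value per probe set for each array, read here as log2 values from their range and thus already summarised from the probes. The summarisation method, any normalization and the base of the logarithm are not given in the sources used here, and folds rest on base 2. The arrays' number limits the precision, since the table gives no depth or background. Array medians averaged 6.90 in WB, 6.94 in TS and 6.94 in NT.

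Of 45101 probe sets 64 controls were left out. Symbols come from the platform annotation (34945 tested probe sets with 1 symbol, 932 with several, 9160 with none), and the gene IDs of all 9 members matched RefSeq. Probe sets with a range of at least 0.01 over the 18 arrays (11946) are called varying, and 33091 are not. Differences were fitted with limma 3.58.1 in R 4.3.3 (lmFit, eBayes, two-sided, all 18 arrays, no covariate), with Benjamini-Hochberg adjustment over 45037 probe sets; a probe set was called, and said to rise or fall, at an adjusted p under 0.05 and a difference of at least 0.01. Adjusted p-values without "exact permutation" are from this fit. Exact permutation tests are two-sided over arrays (SciPy 1.17.1). The fit was tested on simulated data. The correlation of same-numbered arrays' deviations from their group means ranged from -0.27 to 0.14. The same-numbered NT array was the best match for 4 of 6 WB arrays and 2 of 6 TS arrays. The same-numbered TS array was the best match for 0 of 6 WB arrays. Replicate numbers were not used as pairs in the main fit, and a fit with them as a block is given below.

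The members, gene lists, tests and alternatives were chosen with earlier results of these data known. Genes named are all members, every gene of the pathway lists (T cells, gamma delta T cells and homing, NK cells, B cells, plasma cells, signalling, recruitment) called in TS against NT, all varying antibody and T cell receptor chain probe sets with 1 symbol, and for each varying member the 5 genes of highest correlation in deviations from the group means. Genes of the marker lists of other cells are given as counts. Lyve1, Pdpn, Pecam1, Hp, Ttr, Apoa2, Ebf1, Blnk, Pigr, Xbp1, Itgae, Cd69, Ncam1, Alb and the probe sets with several kappa or gamma symbols were chosen after their values were seen.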

Additional observations from a re-analysis of the deposited data

Results flagged for a closer look

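In 1 of 54 sets of 6 arrays tested (18 member and chain probe sets, 3 groups each), 1 array lay far from the others, fewer than the 1 in 20 that chance gives. A probe set annotated to several gamma chain variable segments of the T cell receptor stood at 7.55 on TS 4, while the other TS arrays lay between 6.73 and 6.95. On TS 4 Cd3g (7.76) and Cd3d (7.42) also had their highest values of the TS group, without standing apart by the same measure.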

How the results depend on the processing

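The 6 varying probe sets were refitted under 26 alternatives in each comparison, among them quantile normalization, median centring, a filter on dim probe sets, array weights, a fit of the 12 arrays compared and leaving out each of the 18 arrays. In all 26 every one of the 18 differences kept its direction and its side of the threshold. In TS against NT the Jchain difference ranged from -5.38 to -4.55 (adjusted p 2.56e-06 to 0.00109), that of Cd3g from -1.31 to -1.15 (3.43e-05 to 0.00232) and that of Thy1 from -0.998 to -0.78 (0.000373 to 0.0125). The counts were restated by rescaling, which moves constant probe sets by each array's shift and so turns them into calls. Of all probe sets, 10612 were called in WB against TS, 39795 after quantile normalization and 43993 after median centring. In WB against NT these were 10667, 41328 and 43993. Of the 22 member probe sets 4 were called in WB against TS, but 17 after quantile normalization and 20 after median centring; in WB against NT these were 6, 20 and 22. In TS against NT 4551 were called, of which 50.8% were lower, and 31.2% after quantile normalization. In WB against TS that share was 46.9%, 11.9% after quantile normalization and 11.2% after median centring, and in WB against NT it was 48.8%, 11.7% and 11.7%. Quantile normalization moved the median difference of varying probe sets by 0.12 in WB against NT. With the replicate block, 6 member probe sets were called in TS against NT, 4 in WB against TS and 6 in WB against NT, and no member's call changed. Differences were given per probe set throughout, and none of the alternatives summarised probe sets by gene. With no minimum difference 7020 probe sets passed in TS against NT, 21055 in WB against TS and 21749 in WB against NT. Levels under the array median set a lower limit that the table does not describe, which bears most on Jchain.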
